A study of Mus musculus with 4 samples.

Results

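Voltage-gated calcium channels are built from a pore-forming alpha1 subunit, which sets the current type, and auxiliary beta and alpha2delta subunits, which bring the pore to the membrane and shape its gating. Their opening couples depolarisation to transmitter release and to calcium signals in dendrites. In the retina, bipolar cells and photoreceptors release glutamate at ribbon synapses through L-type channels, while amacrine cells, the inhibitory interneurons of the inner retina, mostly use conventional synapses. The genes described here encode 7 alpha1 subunits (Cacna1a, Cacna1b, Cacna1c, Cacna1d, Cacna1e, Cacna1g and Cacna1h) and 3 alpha2delta subunits (Cacna2d1, Cacna2d2 and Cacna2d3). They were chosen by name from the alpha1 and alpha2delta families, leaving out Cacna1f and Cacna2d4, the pair of the ribbon synapse. The alpha1 genes Cacna1s and Cacna1i are not in the set either. Every probe set annotated to exactly 1 of these 10 genes was taken, which gave 26 probe sets of the 34945 that name a single gene, and 10 genes of 18193.

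The series compared neurons sorted from retinas of mice at postnatal day 6, all offspring of a male with the MP transgene and a female without it, on a mixed C57Bl6 x CD1 background. MP marks cells with the cyan fluorescent protein CFP. Cells positive for CFP and for VC1.1, an antibody that binds amacrine but not bipolar cells, are called MP amacrine cells. Cells positive for CFP but negative for VC1.1, sorted after VC1.1-positive cells had been held back on a magnet, are called MP bipolar cells. The 2 replicates of a group came from separate litters, with about 1000 cells and 1 Affymetrix array for each. The labels do not name the promoter that drives the transgene or how many animals went into a replicate. Without a group lacking the transgene, both groups describe only the cells that express it.

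The median intensity of an array was 44.5 to 47.2. Of 9 amacrine markers, 7 of 8 tested were higher in MP amacrine cells, with summed intensities of 6125 to 6142 against 504 to 538. Of 10 bipolar markers, 8 were on the array under a single gene, and 5 of 7 tested were higher in MP bipolar cells. The 8 summed to 10615 to 10855 in bipolar and to 3307 to 3670 in amacrine cells. Isl1 (log2 fold change 0.64) and Prkca (0.25) pointed toward amacrine cells without passing, and 6 of the 7 had an unadjusted p under 0.05 (limma). Rod markers were bright in both groups, at sums of 6248 to 10603 in amacrine and 7056 to 8638 in bipolar cells, and 0 of 5 tested passed (limma; 2 had an unadjusted p under 0.05). Ganglion cell markers summed to 1877 to 3831 and 2750 to 3628, with Thy1 the 1 of 5 tested that passed, higher in bipolar cells. The other 4 tested ganglion cell markers had log2 fold changes above 0, and 4 of the 5 had an unadjusted p under 0.05 (limma). Nefm (log2 fold change 3.13) and Nefl (2.23) read 1631 and 1102 on MP amacrine replicate 1, and 136 and 87.5 on replicate 2. Cone markers summed to 894 to 1043 and 914 to 921, with Gnat2 the only 1 of 3 tested that passed, higher in amacrine cells. Opn1sw pointed the other way without passing (log2 fold change -1.74), and 2 of the 3 had an unadjusted p under 0.05 (limma). Glial markers summed to 2481 to 2652 and 2001 to 2396, with Slc1a3 the 1 of 5 tested that passed, higher in amacrine cells. Rlbp1 (log2 fold change 1.30), Apoe (1.65) and Glul (0.17) had the same sign without passing. Clu pointed the other way (-0.84), also without passing, and 4 of the 5 had an unadjusted p under 0.05 (limma). Glul alone, at 1594 to 2103, made up most of each glial sum. Horizontal cell markers summed to 662 to 1439 and 854 to 884, microglia markers to 761 to 3001 and 178 to 1280, endothelial markers to 75.2 to 75.4 and 60.8 to 67.4, and markers of dividing cells to 112 to 185 and 51.3 to 68.0. No marker is listed at 0, and the lowest value in the table is 0.73. MP amacrine replicate 2 stood apart in a control for RNA length: its 3-prime Gapdh probe set exceeded the 5-prime one by 3.21 (log2), and on the remaining arrays by 1.78 to 2.0.

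Most of these channel genes were higher in MP amacrine cells, and 1 was far higher in MP bipolar cells. Of 9 genes bright enough to be tested, 6 were higher in amacrine cells (Cacna1a, Cacna1b, Cacna1c, Cacna1d, Cacna1h and Cacna2d3), by 0.92 to 1.68 on the log2 scale. Cacna2d1 was lower in amacrine cells by a log2 fold change of -4.67, and Cacna1g and Cacna2d2 did not pass the test. A gene was called at an adjusted p under 0.05 (limma, Benjamini-Hochberg over all genes tested). Of 11583 genes tested, 13.5% were called, 6.54% higher in amacrine and 6.92% higher in bipolar cells. The median log2 fold change was 1.07 over the 9 tested members and -0.034 over all genes tested. The gene left out of the test was Cacna1e, and Cacna1h entered it only through the arrays of the group in which it was high, so the count does not describe all 10 genes. As the cells were measured in bulk, fewer cells that use a gene and less RNA per cell cannot be told apart.

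**Figure D1:**
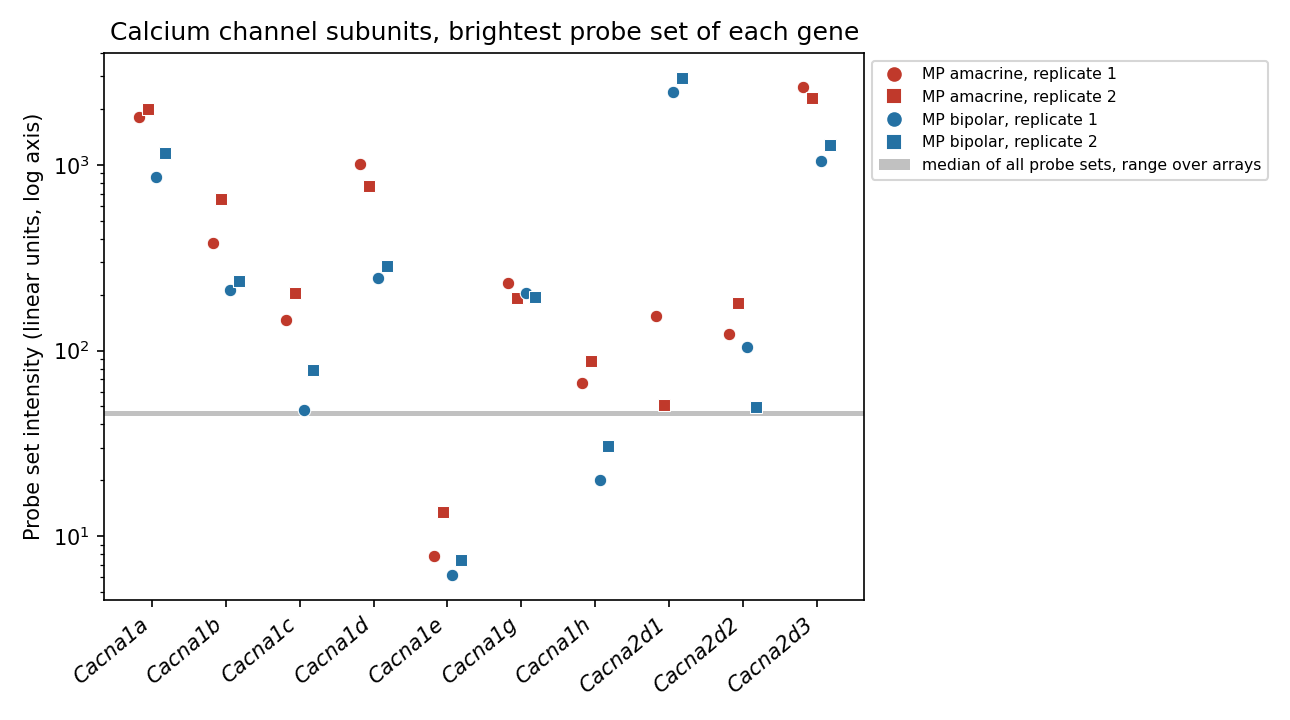
Intensity (linear units on a log axis) of the brightest probe set of each of the 10 genes on the 4 arrays, with MP amacrine arrays in red, MP bipolar arrays in blue, and the median of all probe sets as a grey band at 44.5 to 47.2. Cacna2d1 lies at 2467 and 2948 on the bipolar arrays and at 153 and 51.1 on the amacrine arrays, while Cacna1d lies above its bipolar values on both amacrine arrays. Heights can be compared between arrays for 1 gene, not between genes.

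Letters at annotated start sites, some of them inside the gene, are shown as sequence context. They cover only the genes that had a window. Basic helix-loop-helix factors, the family of Neurod6 in the title of the series, bind E-boxes such as CAGCTG and CAGATG. RefSeq windows of 300 bases (250 before and 50 after a start, build GRCm38.p6) matched 7 of the 10 genes by symbol, with 10 windows in all. Cacna1a, Cacna1g and Cacna1h had no window and were not searched, although Cacna1a and Cacna1h were called higher in amacrine cells. CAGCTG, which reads the same on both strands, was found in 4 of these 10 windows and in 16.3% of all 32851 windows. The stretches below run 5′ to 3′ on the gene's strand, the minus strand for all 4, with the motif in capitals.
Cacna1b: cgggtgcggtagCAGCTGgcgggcgaggtc
Cacna1c: agctcggattcaCAGCTGagtgacagggcc
Cacna1d: gccgcaggcgggCAGCTGgggcgcggcgcg
Cacna2d3: ggcggggctgggCAGCTGccgcggcaagag
They lie at chr2:24763143-24763172, chr6:119196365-119196394, chr14:30353652-30353681 and chr14:29722019-29722048. The motif begins at position -8, 27, -183 and -172 from the start site, in the same order. Cacna1d and Cacna1c have further windows without it. The Cacna1d stretch belongs to a start site 137670 bases inside the gene, and the window at the gene's outer end has no CAGCTG. The windows of Cacna2d1 (chr5:15934441-15934740), Cacna2d2 and Cacna1e do not hold these letters.

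CAGATG or its reverse complement CATCTG, searched on both strands, was found in 2 member windows, both of Cacna1c, and in 17.2% of all windows. These 2 stretches are shown because they are the only matches in member windows to this E-box, which Neurod factors are known to bind. The capitals mark the motif, read on the gene's strand.
Cacna1c, inner window: gagcgtaacattCAGATGatgcagcccctg
Cacna1c, middle window: gcgccgccgccaCATCTGgaagcgttcagc
They lie at chr6:118758174-118758203 and chr6:119108711-119108740. TAATCC, the letters bound by Otx2 and Crx, was in 1 member window (Cacna1c) and in 7.06% of all windows, and CCCNNGGG, the core of Ebf sites, was in 3 (Cacna1b, Cacna1c and Cacna2d3) and in 13.7%. The GC content of the member windows ran from 40.3% to 87.3%, against a median of 52.7% over all windows, and the matches were not set against windows of like GC content. A match describes letters in a window and does not show a bound site.

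Among the L-type subunits, Cacna1d had the largest difference toward amacrine cells. Cacna1d encodes an L-type pore that opens at fairly negative voltages. Its brighter probe set, 1427974_s_at, read 1012 and 769 on the amacrine arrays against 245 and 287 on the bipolar arrays. Both amacrine values lay above both bipolar values. The means were 890.3 ± 172 and 266 ± 30.01 (SD, n = 2), with a log2 fold change of 1.68 (SE 0.24, limma, adjusted p = 0.00246). The other probe set, 1428051_a_at, was too dim to be tested, at 15.9 and 15.3 against 9.32 and 10.4.

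Cacna1c encodes the other L-type pore of the set, the one of heart muscle and of many neuronal dendrites. Its probe set 1421297_a_at read 146 and 205 on the amacrine arrays against 47.6 and 78.4 on the bipolar arrays. The groups did not overlap, although the bipolar arrays sat close to the array medians. The log2 fold change was 1.29 (SE 0.27, adjusted p = 0.0170, limma). The 2nd probe set of the gene, 1435730_at, gave the same log2 fold change of 1.29 (SE 0.23), from 61.0 and 67.6 against 21.7 and 12.7. It was above the array median only on the amacrine arrays, so it could enter the test only through the group in which it was high.

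The fold changes of Cacna1c rest on few arrays. Without MP amacrine replicate 2 the value was 1.06 (adjusted p = 0.0838), and without MP bipolar replicate 1 it was 1.003 (adjusted p = 0.140). Cacna1d was called with any single array left out, at 1.48 to 1.87, though not among single probe sets without MP bipolar replicate 1 (adjusted p = 0.0591). With the mean over both of its probe sets in place of the brighter one, its log2 fold change was 0.98 (adjusted p = 0.0112, limma).

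The presynaptic pores Cacna1a (P/Q-type) and Cacna1b (N-type), which trigger release at most conventional synapses, were both higher in amacrine cells at the level of the gene. The brightest Cacna1a probe set, 1459996_at, read 1809 and 2006 on the amacrine arrays against 858 and 1158 on the bipolar arrays. The lowest amacrine value was above the highest bipolar value. The means were 1908 ± 139 and 1008 ± 212 (SD, n = 2), and their log2 fold change was 0.92 (SE 0.19, adjusted p = 0.0161, limma). Without MP amacrine replicate 2 the value was 0.85 (adjusted p = 0.0721) and without MP bipolar replicate 1 it was 0.71 (adjusted p = 0.106).

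The 4 probe sets of Cacna1a did not give the same answer. The 2nd brightest, 1450510_a_at, read 171 and 138 against 35.8 and 47.7, which is 1.56 on the log2 scale (SE 0.23, adjusted p = 0.00667 in the fit of single probe sets). The next, 1430408_at, pointed the other way without passing, at 72.7 and 68.9 against 77.0 and 97.2 (log2 fold change -0.24, 95% interval -0.75 to 0.26). The dimmest, 1444455_at, was not tested, at 47.0 and 44.2 against 38.1 and 26.7. The transcript parts that these probe sets cover are not given in the sources used here.

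Cacna1b was the member closest to the threshold. Its brightest probe set, 1436602_x_at, read 377 and 656 on the amacrine arrays against 211 and 238 on the bipolar arrays. The groups did not overlap, but the amacrine arrays differed from each other by 0.77 on the log2 scale, against a median gap of 0.25 over all genes tested. On the log2 scale the difference was 1.10 (SE 0.29, adjusted p = 0.0447, limma). When each probe set was tested singly, the adjusted p was 0.0754, so the call depends on testing 1 probe set per gene. The call also went after median scaling (adjusted p = 0.0549). With MP amacrine replicate 2 left out the value was 0.71 (adjusted p = 0.154), with MP bipolar replicate 1 left out 1.02 (0.193), and with MP bipolar replicate 2 left out 1.18 (0.136).

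The probe set 1460608_at of Cacna1b followed it closely, at 370.0 and 629 against 219 and 229.8. The values of these probe sets were alike on every array, and whether they share sequence was not examined here. The 3rd probe set, 1439612_at, read 119 and 142 against 102 and 66.1, with a log2 fold change of 0.57 that did not pass (adjusted p = 0.255). The 4th, 1425812_a_at, lay below the array median on every array, and its groups overlapped.

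Of the remaining pores, Cacna1h was higher in amacrine cells, Cacna1g did not differ detectably and Cacna1e was dim throughout. Cacna1g and Cacna1h encode low-voltage-activated T-type channels, which open near rest and support rebound firing. The Cacna1h probe set 1422710_a_at read 66.7 and 87.7 on the amacrine arrays against 20.2 and 30.4 on the bipolar arrays. Only the amacrine values lay above the array medians. On the log2 scale the difference was 1.18 (SE 0.23, adjusted p = 0.0125, limma), and without MP bipolar replicate 1 it was 0.995 (adjusted p = 0.0827). The gene's other probe set, 1427607_at, gave 0.79 (adjusted p = 0.0566 among single probe sets), from 58.6 and 51.2 against 24.3 and 25.6.

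Cacna1g, with a single probe set, read 231 and 192 on the amacrine arrays against 204 and 195 on the bipolar arrays. Each group's values overlapped the other's. The log2 fold change was 0.074 with a 95% interval of -0.44 to 0.58 (adjusted p = 0.892, limma). A difference as large as that of Cacna1b (1.10) lies outside this interval, and smaller ones of either sign lie inside it.

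Cacna1e, the R-type pore, was not tested. Its probe sets read 7.85 and 13.5 against 6.19 and 7.39 (1436260_at) and 4.87 and 1.22 against 3.51 and 7.91 (1421692_at). These values lie far below the array medians, where the table cannot separate weak signal from background because it carries no detection calls.

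The alpha2delta subunits, extracellular partners of the pore that are known to promote its trafficking and to take part in synapse formation, differed in direction. Cacna2d1, a binding site of gabapentin together with Cacna2d2, was the member with the largest difference. Its probe set 1433643_at read 153 and 51.1 on the amacrine arrays against 2467 and 2948 on the bipolar arrays. The means were 102 ± 72.1 and 2708 ± 340.2 (SD, n = 2), a ratio of 26.5 on the linear scale. The log2 fold change was -4.67 (SE 0.40, adjusted p = 0.000199, limma). It was called with any single array left out, at -5.34 without MP amacrine replicate 1 and -4.00 without MP amacrine replicate 2. With the mean over all probe sets of the gene it was -2.17 (adjusted p = 0.00142, limma).

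All 5 probe sets of Cacna2d1 had lower means on the amacrine arrays, and 2 of 3 tested passed. The 2nd that passed, 1441608_at, read 11.3 and 10.7 against 904 and 245, which is -4.18 on the log2 scale (SE 0.53, adjusted p = 0.00400 among single probe sets). It was above the array medians only on the bipolar arrays, so it entered the test only through the group in which it was high. Its bipolar arrays differed from each other by 1.82 on the log2 scale, while those of 1433643_at differed by 0.26. The probe set 1440397_at gave -0.40 without passing (adjusted p = 0.442), from 41.1 and 69.6 against 83.5 and 69.8. The 2 dim probe sets that were not tested, 1449999_a_at and 1425861_x_at, read 6.31 and 7.20 against 31.3 and 24.3, and 3.64 and 2.27 against 22.2 and 7.92.

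The signal of Cacna2d1 on the amacrine arrays was set beside the bipolar markers, which did not share 1 direction there. On MP amacrine replicates 1 and 2, Cacna2d1 read 153 and 51.1, Cabp5, a bipolar calcium-binding protein, read 259 and 29.4, Vsx1, a cone bipolar transcription factor, read 154 and 67.7, and Scgn read 143 and 103. These were higher on replicate 1, whereas Otx2, at 1523 and 1646, Trpm1, at 22.4 and 26.7, and Grik1 (24.2 on replicate 1) were higher on replicate 2. Prkca, at 489.9 and 478, was nearly level, and Isl1 read 1055 and 925. Neither was called between the groups, and their log2 fold changes were above 0 (0.25 and 0.64). By count, 5 of the 8 bipolar markers were higher on replicate 1 and 3 on replicate 2. The part of bipolar cells in the Cacna2d1 signal was not tested. On the bipolar arrays the 9 amacrine markers ran from 2.83 (Tfap2c) to 190.5 (Gad2). Gad2, Tfap2a, Slc32a1 and Slc6a9 lay above the array medians on both bipolar arrays, and Neurod6, at 9.55 and 5.99, lay far below them.

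Cacna2d3, an alpha2delta subunit outside the gabapentin-binding pair, went the opposite way with the smallest standard error of the 9 tested members. Its single probe set, 1419225_at, read 2615 and 2310 on the amacrine arrays against 1049 and 1287 on the bipolar arrays, without overlap. The log2 fold change was 1.07 (SE 0.17, adjusted p = 0.00394, limma), and it was called with any single array left out, at 0.92 to 1.22. Among single probe sets it did not pass without MP bipolar replicate 1 (adjusted p = 0.0767).

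Cacna2d2, the subunit lost in ducky mice, which have ataxia and seizures, read 123 and 180 on the amacrine arrays against 104 and 49.4 on the bipolar arrays for its brightest probe set, 1450754_at. The amacrine values were higher, but the bipolar arrays differed from each other by 0.88 on the log2 scale. The log2 fold change was 0.90 with a 95% interval of 0.15 to 1.65, and it did not pass the adjusted threshold (adjusted p = 0.126, limma). With MP bipolar replicate 1 left out the value was 1.34, and with MP bipolar replicate 2 left out it was 0.46. Its other probe sets, 1451955_a_at and 1426185_at, lay between 1.74 and 10.9 on all arrays.

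**Figure D2:**
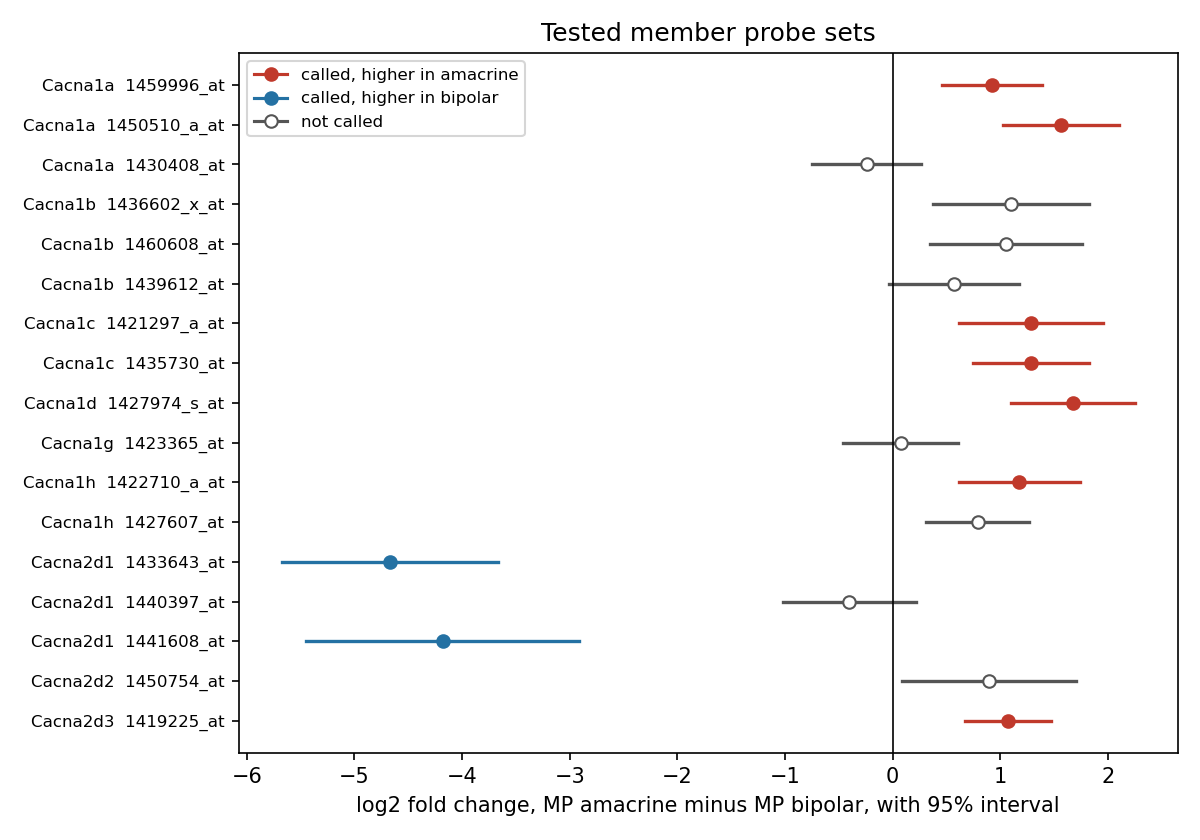
Log2 fold change (MP amacrine minus MP bipolar, horizontal axis) with its 95% interval for each of the 17 tested probe sets of the 10 genes, from the fit of single probe sets; filled red and blue points were called, open grey points were not. The 7 red points lie between 0.92 and 1.68, the 2 blue points, both of Cacna2d1, at -4.67 and -4.18.

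Counted by probe set, 17 of 26 were tested, 7 were called higher in amacrine cells and 2 higher in bipolar cells (limma over 19168 single-gene probe sets). Among all probe sets tested, 10.2% were called, 5.04% higher in amacrine and 5.19% higher in bipolar cells. Of the 17 tested, 16 had groups that did not overlap, against 51.8% of all probe sets tested, and so had 8 of the 9 tested genes, all but Cacna1g, against 53.3% of all genes tested. Of these 17, 4 lay above the array medians on arrays of only 1 group (1435730_at of Cacna1c, both probe sets of Cacna1h, and 1441608_at of Cacna2d1). An exact permutation test of 2 arrays against 2 cannot give a two-sided p below 0.333. Each call rests on the model of limma, with 2 residual degrees of freedom and a variance partly borrowed across probe sets.

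**Figure D3:**
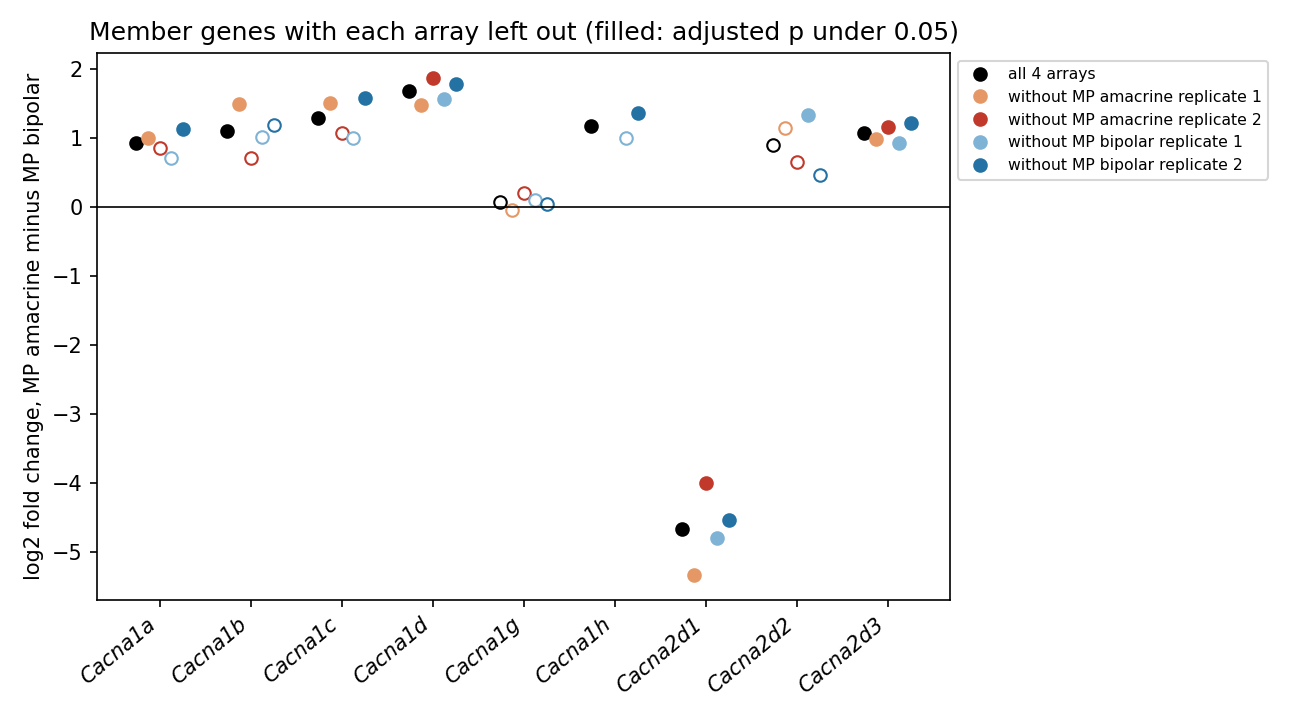
Log2 fold change (MP amacrine minus MP bipolar, vertical axis) of the 9 tested genes with all 4 arrays (black) and with each array left out; filled points have an adjusted p under 0.05 and open points do not. Cacna1d, Cacna2d1 and Cacna2d3 stay filled throughout, while Cacna1a, Cacna1b and Cacna1c are open in 2 or more of the 4 omissions; Cacna1h is absent where an amacrine array was left out.

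Which members were called changed with the array left out, and so did the number of calls over all genes. The filter still asked for 2 arrays above the median, so Cacna1h could not be tested without an amacrine array. Without MP amacrine replicate 2, the array with the largest 3-prime to 5-prime difference, the members called were Cacna1d, Cacna2d1 and Cacna2d3, and Cacna1h was not tested. A group reduced to 1 array has no spread of its own, and it was given that of the opposite group. When dim probe sets were not filtered out, Cacna1d, Cacna2d1 and Cacna2d3 were again the members called, while Cacna1a (adjusted p = 0.0850), Cacna1b (0.160), Cacna1c (0.112) and Cacna1h (0.0754) did not pass.

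The ribbon pair that the set leaves out was higher in bipolar cells. Cacna1f, the L-type pore of ribbon synapses, read 13.8 and 6.03 on the amacrine arrays against 180 and 226 on the bipolar arrays (log2 fold change -3.09, SE 0.24, adjusted p = 0.000121, limma). Cacna2d4, its alpha2delta partner, read 37.4 and 26.8 against 379 and 596 (-3.36, SE 0.27, adjusted p = 0.000149, limma), and its probe set 1442863_at, at 77.3 and 78.2 against 69.5 and 81.3, showed no difference that passed (0.039). With the mean over its probe sets Cacna2d4 was still called, at -1.83. Set beside the members, the L-type pores Cacna1d (1.68) and Cacna1c (1.29) and the pore Cacna1f (-3.09) were called in opposite directions, and so were Cacna2d3 (1.07) and the pair Cacna2d1 (-4.67) and Cacna2d4 (-3.36).

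Of 16 other channel subunit genes, 14 were on the array under a single gene and 8 were tested. Over all genes tested, 6.54% were called higher in amacrine and 6.92% higher in bipolar cells. Of the 8, 1 was called higher in amacrine and 3 higher in bipolar cells (median log2 fold change -0.17). Besides the ribbon pair these were the beta subunits, cytoplasmic partners that set the surface density and inactivation of the pore. Cacnb4 read 338 and 332 on the amacrine arrays against 136 and 153 on the bipolar arrays (log2 fold change 1.13, SE 0.21, adjusted p = 0.0105, limma). Its 2nd probe set, 1436912_at, agreed in sign and was called (1.27), and its 3rd, 1452089_at, was not called (0.053). Cacnb2, the beta subunit linked to photoreceptor ribbon synapses, read 65.6 and 61.2 against 159 and 257 (-1.46, SE 0.26, adjusted p = 0.00758, limma). The calls of Cacnb2 and Cacnb4 were both lost without MP bipolar replicate 2, that of Cacnb4 also without MP bipolar replicate 1, and that of Cacnb2 also without the filter on dim probe sets (adjusted p = 0.0709). Cacnb1 did not pass (-0.034), nor did Cacng2 (-0.30), Cacng4 (0.81) and Cacng7 (0.088), genes of the gamma family. With the replicate number as a block, Cacng4 was called higher in amacrine cells (adjusted p = 0.0306, limma). Cacna1i and Cacnb3 were not analysed here, and Cacna1s was too dim to be tested.

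**Figure D4:**
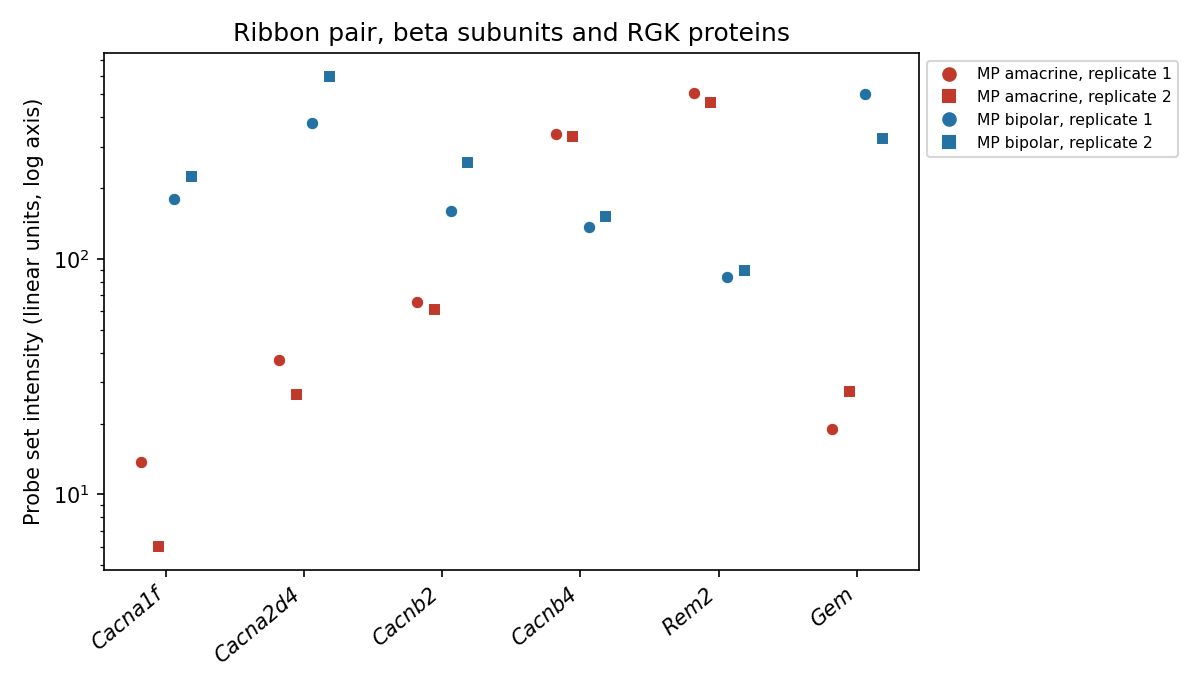
Intensity (linear units on a log axis) of Cacna1f, Cacna2d4, Cacnb2, Cacnb4, Rem2 and Gem on the 4 arrays, with MP amacrine arrays in red and MP bipolar arrays in blue. Cacnb4 and Rem2 are higher on both amacrine arrays, and Cacna1f, Cacna2d4, Cacnb2 and Gem on both bipolar arrays.

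A further list held 32 genes for proteins that bind or may modulate these channels, some of them better known for other roles. Of these, 27 were on the array under a single gene and 20 were tested. Among the 20, 3 were called higher in amacrine and 7 higher in bipolar cells (median log2 fold change -0.41). The shares over all genes tested were 6.54% and 6.92%. Rem2 and Gem are small GTPases of the RGK family, which inhibit high-voltage-activated channels through the beta subunit, and they were called in opposite directions. Rem2 read 505 and 464 on the amacrine arrays against 84.0 and 90.0 on the bipolar arrays (2.28, SE 0.21, adjusted p = 0.000312, limma), and its 2nd probe set, 1457651_x_at, gave 2.68. Gem read 19.0 and 27.4 against 501 and 326 (-3.43, SE 0.26, adjusted p = 0.000118, limma). Thbs3, a thrombospondin, a family that includes ligands of Cacna2d1, read 167 and 105 against 23.1 and 25.9 (1.88, SE 0.25).

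Calcium sensors and kinases made up most of the remaining calls. The calmodulin-like proteins Cabp5 (-4.91, SE 0.69), Cabp2 (-2.34, SE 0.31) and Cabp1 (-1.28, SE 0.33), which bind channels in place of calmodulin, were higher in bipolar cells. Cabp1 was close to the threshold (adjusted p = 0.0389) and lost its call under quantile, median and loess scaling. The kinase subunits Camk2b (-1.18, SE 0.20) and Camk2d (-0.72, SE 0.20, adjusted p = 0.0491) were higher in bipolar cells, and Camk2a (1.14, SE 0.20), at 45.9 and 48.1 against 11.4 and 13.8, was higher in amacrine cells. The call of Camk2d was likewise lost under the 3 scalings. Among single probe sets, its 1460630_at (-1.48, adjusted p = 0.00522, limma) and 1444031_at (-1.32, adjusted p = 0.0282) were called higher in bipolar cells. Its other tested probe sets, the brightest included, were not called there, and 1439168_at gave 0.031. Without the filter on dim probe sets Cabp5 (adjusted p = 0.0605), Cabp1 and Camk2d were not called, and without MP bipolar replicate 2 Camk2b was not (-1.02, adjusted p = 0.0770). With single arrays left out, Cabp1 kept its call only without MP amacrine replicate 1, and Camk2d kept it in none of the 4 cases. Dpp10 (-2.11, SE 0.21), better known as an auxiliary subunit of potassium channels, was higher in bipolar cells. Among these partners, Cacna1f, Cacna2d4, Gem and Cabp2 lay above the array medians only on bipolar arrays, and Camk2a and Thbs3 only on amacrine arrays, so these 6 entered the test through the group in which they were high and could not be tested with an array of it left out. The active-zone proteins Rims1 (-0.061), Rims2 (-0.85), Rims3 (0.28), Rims4 (-0.11) and Rimbp2 (-0.37), which tether channels at release sites, did not pass. Rims2 rested on the probe set and array used: its probe set 1436470_at was called higher in bipolar cells (-1.68, adjusted p = 0.00408 among single probe sets), and its brightest was called without MP amacrine replicate 2 (-1.37, adjusted p = 0.0118) but not without MP amacrine replicate 1 (-0.32). With the replicate number as a block, Rims2 was called (adjusted p = 0.0367).

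For the called members with the largest difference in each direction, the 3 tested genes with the nearest profile over the 4 arrays were found by the Euclidean distance of log2 values after each gene's own mean was subtracted. For Cacna1d they were Tyro3 (distance 0.068), a receptor tyrosine kinase, Paqr3 (0.15) and C130071C03Rik (0.17). For Cacna2d1 they were Zfp521 (0.18), a zinc finger factor, Otor (0.28) and Tafa3 (0.34). Zfp521 read 97.7 and 34.5 on the amacrine arrays against 1786 and 1883 on the bipolar arrays, Otor 126 and 51.7 against 2704 and 2782, and Tafa3 250.2 and 127 against 4065 and 4901. All 3 were, like Cacna2d1, higher on MP amacrine replicate 1 than on replicate 2. Over 4 arrays such likeness is a description only.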

How the data were processed

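The deposited values are linear intensities of 45101 probe sets on 4 arrays. The steps by which the authors reached these intensities, and how they scaled them, are not given in the sources used here. RNA went through 2 rounds of amplification, per the labels' protocols. The 64 control probe sets were left out, genes came from the platform annotation, and 932 probe sets with several genes and 9160 with none were not used.

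Values were taken as log2(intensity + 16), so fold changes of dim genes are understated. The probe set with the highest mean stood for a gene, and it was tested when it exceeded the array median on 2 or more of the 4 arrays, so that 6610 genes were left out. MP amacrine and MP bipolar arrays were compared with limma 3.58.1 in R 4.3.3 (eBayes with an intensity trend, two-sided, no covariates), with adjusted p over all genes tested. A 2nd fit covered every single-gene probe set that passed the same filter. The fit of genes was tested on simulated data, and the fit of single probe sets was not. The number of arrays limits the precision. The alternatives were other scalings, pseudocounts of 1 and 64, other filters and probe set choices, no trend, the replicate number as a block, and each array left out. All members were named, the called genes of both partner lists, and the 3 nearest profiles. Uncalled partner genes and cell type markers were named after their values were seen. The members, the lists and the rules were chosen with earlier results of these data known.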

Additional observations from a re-analysis of the deposited data

How the results depend on the processing

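Among the member genes, Cacna1d, Cacna2d1 and Cacna2d3 kept their direction and their call under all 15 alternatives. Some sizes moved by over 1.5 times: with the mean over all probe sets of a gene, Cacna1d was 0.98 in place of 1.68 and Cacna2d1 -2.17 in place of -4.67. With a pseudocount of 64, Cacna1h was 0.66 in place of 1.18. Without a filter on dim probe sets, 785 genes were called (400 higher in amacrine and 385 higher in bipolar cells) in place of 1559, 694 single probe sets (343 and 351) in place of 1961, 3 member genes (2 higher in amacrine) in place of 7, and 2 member probe sets (1 in each direction) in place of 9. With each array left out in turn, the genes called numbered 823 to 1700 (405 to 536 higher in amacrine, 312 to 1164 higher in bipolar cells), the single probe sets 680 to 2460 (450 to 864 and 230 to 1596), the member genes 3 to 6 (2 to 5 higher in amacrine) and the member probe sets 2 to 9 (1 to 7 and 1 to 2). Cacna1g, not called in any setting, ranged from -0.050 (without MP amacrine replicate 1, where its sign reversed) to 0.20 with single arrays left out, in both fits. With the mean over all probe sets of a gene, Cacna1a (0.65, adjusted p = 0.0506) and Cacna1b (0.70, adjusted p = 0.0953) were not called. The labels do not say whether arrays with the same replicate number share a litter or a sort. The deviations of equally numbered arrays correlated at -0.066 over probe sets, which cannot decide this with 2 arrays a group. With the replicate number as a block, 1932 genes and 8 member genes were called, the added member being Cacna2d2 (adjusted p = 0.0354, limma). With 2 arrays a group and no detection calls, levels below the array median cannot be told from background.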
